A study of Mus musculus with 18 samples.

Results

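Integrins, laminins and the other core proteins of basement membranes were described in cultured normal fibroblasts (NFs) of the mouse mammary gland. The genes were taken by symbol from the table of counts: all integrin alpha chains, integrin beta chains 1 to 8, all laminin alpha, beta and gamma chains, the nidogens Nid1 and Nid2, perlecan (Hspg2) and agrin (Agrn). These are 41 of the 55486 genes in the table, namely 18 integrin alpha, 8 integrin beta and 11 laminin genes and 4 genes for nidogens, perlecan and agrin. Of the 41, 37 passed a filter on low counts and were tested among 14273 genes in all. Itgae, Itgal, Itgam and Itgax, which encode chains of leukocyte integrins, did not pass it, with at most 9 counts in any library.

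The NFs came from the mammary glands of female FVB/n mice, with several mice pooled per sort. They were sorted as negative for EpCAM, CD49f, CD45 and CD31 and then as CD26- or CD26+, and were grown at low passage on plates coated with collagen I. Polyadenylated RNA was sequenced after 7 days in conditioned medium, either a control one or that of tumour cells (CM), taken from 6 cell lines of the WEPtn model of invasive lobular breast cancer, in which the deletions made by WapCre include that of Cdh1. The 18 libraries make 4 groups. CD26- NFs have 3 control libraries (replicates 1 to 3) and 6 CM libraries (replicates 4 to 9), and CD26+ NFs have 3 control libraries (replicates 10 to 12) and 6 CM libraries (replicates 13 to 18). In each cell type the CM replicates were given, in the order of their numbers, the CM of lines 13-MCB-17, 10-SJK-221, 18-MCB-12, 13-MCB-44, 13-MCB-90 and 13-MCB-138. The labels do not say that replicates were separate cultures or animals, so the p-values below measure the spread between these libraries. CD49f is the product of Itga6, a gene described here, and CD49f+ cells were gated out before culture.

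Basement membranes are thin sheets of matrix under epithelia and around muscle, fat and vessels. Laminins, trimers of 1 alpha, 1 beta and 1 gamma chain, form one network in them, type IV collagen forms another, and nidogens, perlecan and agrin tie the networks to each other and to the cell surface. Integrins are receptors of 1 alpha and 1 beta chain that hold cells to laminin, collagen, fibronectin and other ligands. In the mammary gland the laminin chains Lama3 and Lamb3 and the receptor of Itga6 and Itgb4 are best known from the epithelium, where they build hemidesmosomes.

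Total counts per library ran from 9725723 to 14585349. Fibroblast genes were abundant in every library, with 9 markers summing to 9813 to 21488 CPM (counts scaled to a common library size after correction for composition) in CD26- NFs and 29191 to 79501 CPM in CD26+ NFs. Of the 9, 8 were higher in CD26+ NFs in control medium and 7 in tumour CM. In CD26+ NFs the sum was 62522 to 79501 CPM in control medium and 29191 to 52131 CPM in tumour CM, with 3 markers up and 4 down. Epithelial markers were present too. The 14 markers, which include Epcam, Cdh1 and keratins, summed to 5391 to 6034 CPM in CD26- control libraries, 3504 to 5705 CPM in CD26- CM libraries, 852 to 1571 CPM in CD26+ control libraries and 797 to 1924 CPM in CD26+ CM libraries. In both media 12 of the 14 were lower in CD26+ NFs and 0 were higher. Markers of endothelial cells summed to at most 9.23 CPM and glial markers to at most 5.04 CPM. Of 8 immune markers 4 stayed at or under 3 counts in every library, and the sum was at most 54.9 CPM. Mural markers, of which 6 were tested, summed to 200.5 to 214 CPM in CD26- control libraries, 88.1 to 198 CPM in CD26- CM libraries, 65.8 to 86.3 CPM in CD26+ control libraries and 64.0 to 109 CPM in CD26+ CM libraries. In control medium 4 of them were lower in CD26+ NFs and 1 higher, and 2 fell under CM in CD26- NFs. Adipocyte markers summed to 14.3 to 27.9 CPM in CD26- and 22.3 to 89.1 CPM in CD26+ libraries. The part of these cells in the results below was not tested.

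The first question was how CD26+ and CD26- NFs differ in these genes before and after exposure to tumour CM. Laminin chains differed in both directions. CD26+ NFs had more Lama4, Lamb2 and Lamc1, and CD26- NFs had more Lama2, Lama3, Lama5, Lamb3 and Lamc3, in both media. In control medium 26 of the 37 tested members, or 70.3%, passed an FDR of 0.05 (the p of edgeR's quasi-likelihood test, adjusted by Benjamini-Hochberg over all tested genes), 10 higher in CD26+ NFs and 16 lower. Of all genes tested 50.3% passed, 25% higher and 25.4% lower. In tumour CM 31 members passed (83.8%), 15 higher and 16 lower, where 58.6% of all genes did, 29.3% in each direction. The median log2 fold change over the tested members was -0.16 in control medium and 0.13 in tumour CM, beside 0.01 and -0.00 over all genes. With the log2 limit of 2 that the study used, 10 members passed in control medium and 7 in tumour CM, where 5.97% and 4.16% of all genes did. The 25 members that passed in both media kept their direction. Itga10, a collagen receptor chain, passed in control medium alone, and Lama1, Lamb1, Nid1, Hspg2, Itgav and Itgb8 in tumour CM alone. The call of Itga10, with at most 17 counts in a library, was lost in 7 of 24 alternatives, DESeq2 among them, and that of Lama1 in 7 of 26. Whether the cell type difference itself depends on the medium was tested, and the result is given below.

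**Figure D1:**
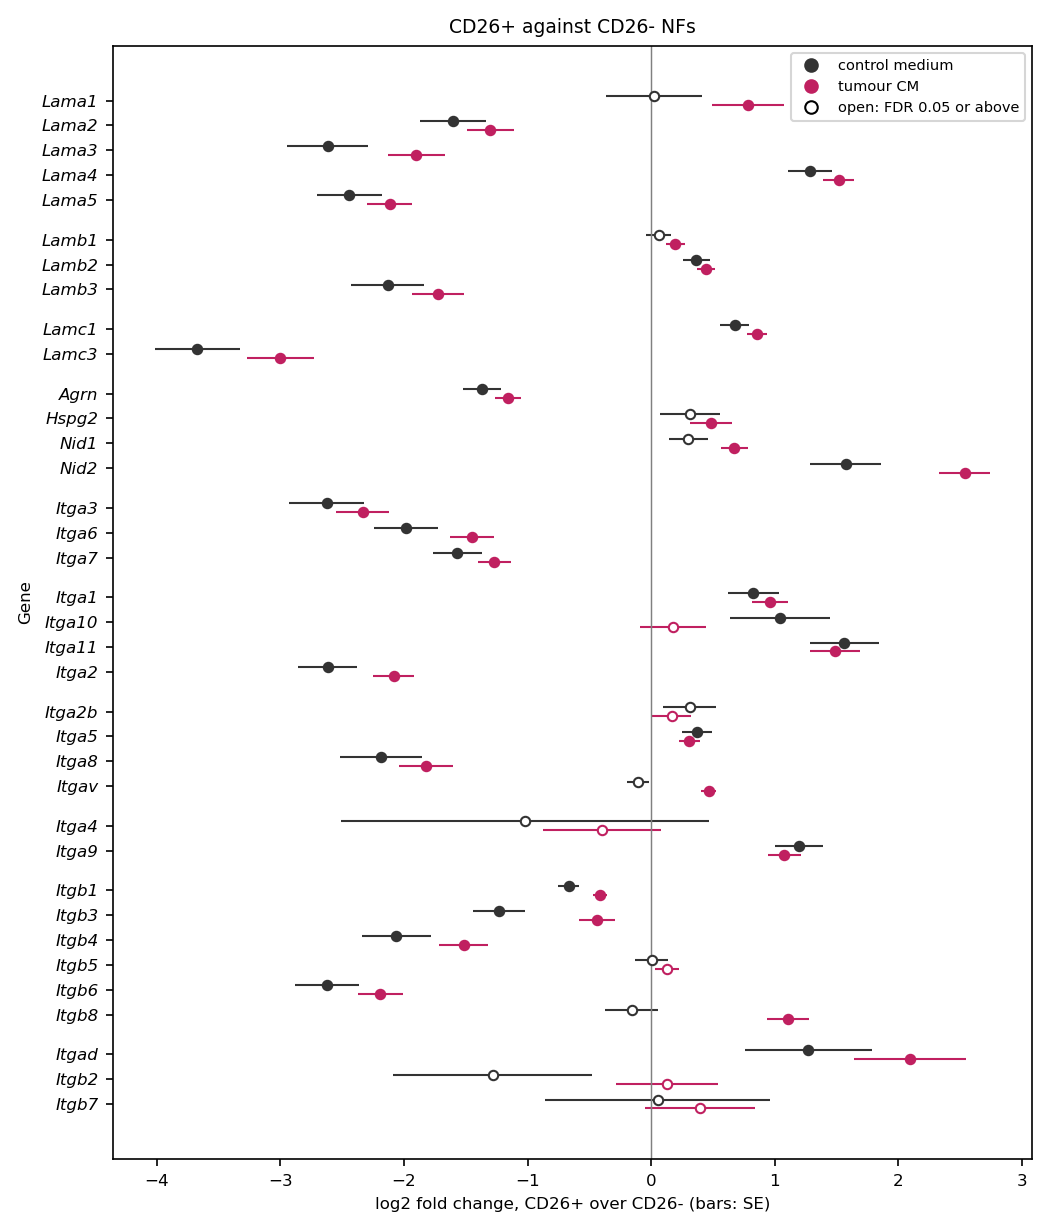
Log2 fold change of tested members between CD26+ and CD26- NFs, with the standard error as bars, in control medium (dark, 3 against 3 libraries) and in tumour CM (red, 6 against 6), where filled points passed an FDR of 0.05. Genes are grouped from laminin chains at the top to leukocyte integrins at the bottom, and the points run from -3.67 for Lamc3 in control medium to 2.54 for Nid2 in tumour CM.

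Lama4, the alpha chain of laminins of mesenchymal and vascular basement membranes (chromosome 10, 38965515 to 39110188, GRCm38), was measured at 146, 156 and 151 CPM in CD26- control libraries and at 338, 383 and 385 CPM in CD26+ control libraries. In tumour CM it lay between 101 and 199 CPM (median 140.0) in CD26- NFs and between 377 and 444 CPM (median 406) in CD26+ NFs. No CD26- library reached the lowest CD26+ library in either medium. The log2 fold change was 1.29 ± 0.18 (SE) in control medium (FDR 1.14e-05) and 1.52 ± 0.13 in tumour CM (FDR 2.43e-08).

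Lamc1, the gamma chain of most laminins, followed the same direction with a smaller fold. Its values were 376, 426 and 423 CPM in CD26- control libraries, 580.2, 677 and 699.7 CPM in CD26+ control libraries, 392 to 551 CPM (median 431) in CD26- CM libraries and 739 to 913 CPM (median 787) in CD26+ CM libraries. The groups did not overlap in either medium, and the log2 fold change was 0.68 ± 0.12 in control medium (FDR 0.000125) and 0.86 ± 0.08 in tumour CM (FDR 1.45e-07). Lamb1, a widely used beta chain, lay close together in control medium, at 457, 471 and 467 CPM in CD26- NFs and 482, 488 and 484 CPM in CD26+ NFs. Its difference there was 0.06 ± 0.10 (FDR 0.664), and in tumour CM, with 460.0 to 576 CPM (median 517) against 502 to 712 CPM (median 585), it was 0.20 ± 0.07 (FDR 0.0300). That last call was lost in 7 of 26 alternative settings.

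Lamc3 had the widest gap of the members. CD26- control libraries held 39.4, 39.2 and 35.3 CPM, and CD26+ control libraries held 2.59, 2.59 and 3.71 CPM. In tumour CM the range was 8.81 to 22.0 CPM (median 13.2) in CD26- NFs and 0.985 to 3.25 CPM (median 1.52) in CD26+ NFs. The log2 fold change was -3.67 ± 0.34 (FDR 2.25e-07) and -2.9999 ± 0.27 (FDR 6.04e-08). Lama5, the alpha chain of most adult epithelial and vascular laminins, stood at 245, 228 and 196 CPM in CD26- control libraries against 54.6, 23.0 and 45.6 CPM in CD26+ control libraries. In tumour CM it ran from 130.0 to 224 CPM (median 198) against 34.0 to 57.1 CPM (median 38.3), and its log2 fold changes were -2.44 ± 0.26 (FDR 9.15e-07) and -2.12 ± 0.19 (FDR 4.40e-08).

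Levels of different chains were compared per length, as RPKM over the union of a gene's exons. In CD26+ NFs Lama4 gave 76.3% ± 5.68 (SD, n = 3) of the summed RPKM of the 5 alpha chains in control medium and 79.4% ± 3.81 (n = 6) in tumour CM. In CD26- NFs it gave 21.0% ± 0.869 and 27.6% ± 5.94. There Lama3 held 39.0% ± 2.03 in control medium and 27.5% ± 2.92 in tumour CM, and Lama5 held 32.7% ± 3.10 and 37.8% ± 5.54. Among the beta chains Lamb3 held 19.7% ± 0.860 and 14.4% ± 2.49 in CD26- NFs and 4.72% ± 0.681 and 4.01% ± 1.74 in CD26+ NFs. Lamb1 held the most in each group, at 51.0% ± 1.89 and 58.3% ± 3.98 in CD26- NFs and at 55.7% ± 1.17 and 61.5% ± 3.93 in CD26+ NFs.

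**Figure D2:**
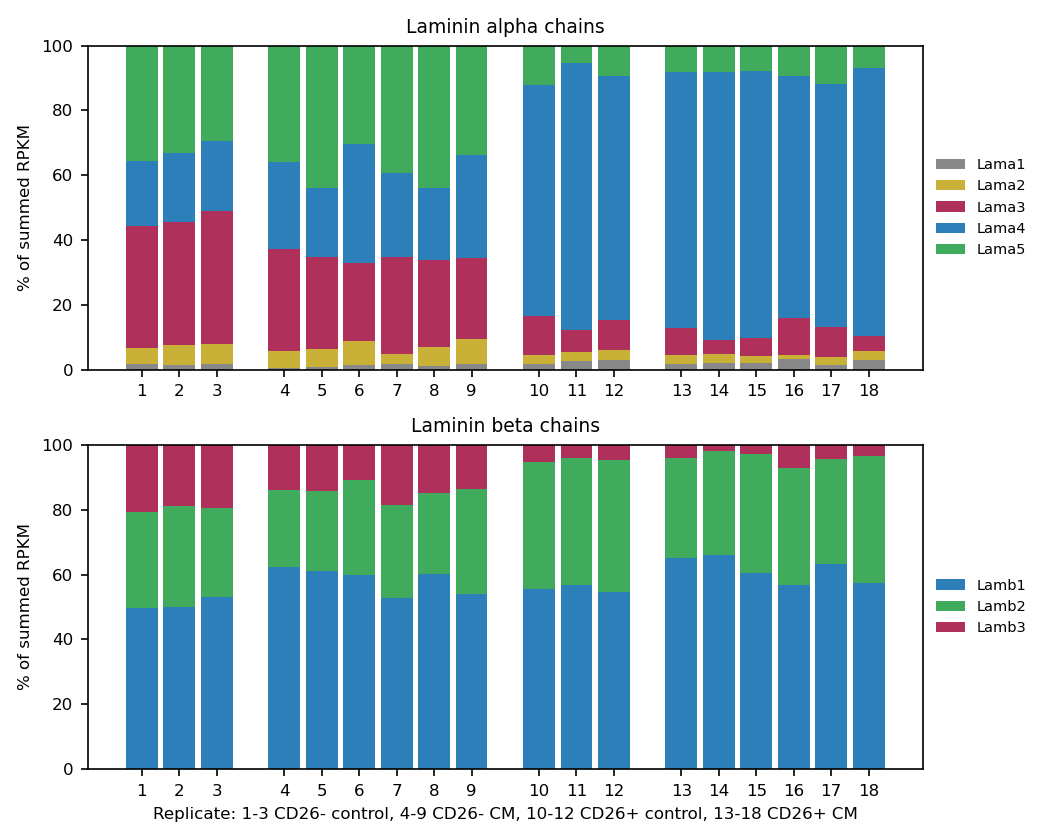
Share of each laminin chain in the summed RPKM of its family (alpha chains above, beta chains below) in each of the 18 libraries, grouped by cell type and medium along the x axis. Lama4 fills most of the alpha chain bars of CD26+ libraries, and Lama3, Lama5 and Lamb3 take larger shares in CD26- libraries.

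Lama3 and Lamb3, chains of epithelial laminin, were lower in CD26+ NFs together. Lama3 was measured at 245, 246 and 259 CPM in CD26- control libraries and at 50.7, 28.8 and 43.0 CPM in CD26+ control libraries, and Lamb3 at 126, 119 and 115 against 31.0, 22.9 and 28.3 CPM. The log2 fold changes in control medium were -2.62 ± 0.33 for Lama3 (FDR 4.30e-06) and -2.13 ± 0.30 for Lamb3 (FDR 1.24e-05). In tumour CM they were -1.90 ± 0.23 (FDR 1.74e-06) and -1.72 ± 0.21 (FDR 1.77e-06). In CM libraries Lama3 ran from 96.7 to 160.3 CPM (median 125) in CD26- NFs and from 17.9 to 60.2 CPM (median 31.0) in CD26+ NFs, without overlap. Lamb3 ran from 62.7 to 108 CPM and from 13.2 to 44.0 CPM, again apart.

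Receptor chains of hemidesmosomes differed the same way. Itga6, whose product CD49f was a gate of the sort, was still measured at 196, 218 and 205 CPM in CD26- control libraries and at 60.9, 38.9 and 56.9 CPM in CD26+ control libraries. In tumour CM the ranges were 164 to 250.2 CPM (median 208) and 44.4 to 101 CPM (median 81.3). Itgb4, the beta chain found in hemidesmosomes, had 177, 179.6 and 166 CPM in CD26- control libraries against 52.5, 28.3 and 44.6 CPM in CD26+ control libraries, and 90.1 to 153 CPM (median 129) against 23.5 to 65.1 CPM (median 48.6) in tumour CM. The log2 fold change of Itga6 was -1.98 ± 0.26 in control medium (FDR 5.82e-06) and -1.45 ± 0.18 in tumour CM (FDR 1.86e-06), and that of Itgb4 was -2.06 ± 0.28 (FDR 1.06e-05) and -1.52 ± 0.20 (FDR 3.87e-06). Itga3 and Itga7, the other laminin-binding alpha chains, were lower in CD26+ NFs as well, with -2.62 ± 0.30 and -1.57 ± 0.20 in control medium. Itgb6, the partner of Itgav in epithelia, stood at 39.3, 33.1 and 35.1 CPM in CD26- control libraries against 8.01, 3.85 and 5.64 CPM in CD26+ control libraries, a log2 difference of -2.62 ± 0.26 (FDR 3.71e-07). In tumour CM its difference was -2.19 ± 0.18 (FDR 2.67e-08), with 23.7 to 35.0 CPM (median 28.8) against 4.02 to 9.51 CPM (median 6.43).

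The epithelial markers differed between the cell types in the same direction as these chains. The summed CPM of Lama3 and Lamb3 came to 365 to 374 in CD26- control libraries, 159 to 268 in CD26- CM libraries, 51.7 to 81.7 in CD26+ control libraries and 31.1 to 104 in CD26+ CM libraries. Set against the summed CPM of the 14 epithelial markers in the same library, this was 6.16% to 6.93%, 4.34% to 5.17%, 5.20% to 6.07% and 3.67% to 5.51%. By this measure the cell types overlapped in tumour CM, and in control medium every CD26- library lay above every CD26+ library. CD26+ CM replicate 16 had the highest epithelial sum of its group and the highest Lama3, Lamb3, Itga3, Itgb4 and Itgb6, whereas Itga6 was highest in replicate 13 and Itga7 in replicate 17. Among CD26- control libraries the sum of Lama3 and Lamb3 was highest in replicate 3, where the epithelial sum was lowest. Itga6 amounted to 3.24% to 3.80% of the epithelial sum in CD26- and 3.87% to 4.57% in CD26+ control libraries. In CM libraries it was 3.69% to 5.46% and 4.75% to 8.43%. Itgb4 amounted to 2.93% to 3.09% in CD26- and 3.32% to 3.58% in CD26+ control libraries, and to 2.57% to 3.08% and 2.78% to 5.03% in CM libraries. For both chains every CD26+ control library lay above every CD26- control library, and the cell types overlapped in tumour CM. Lamc3 amounted to 0.653% to 0.673% in CD26- control libraries and 0.165% to 0.304% in CD26+ control libraries. In these bulk cultures fewer cells of a type and less RNA per cell cannot be told apart, and the part that epithelial cells have in these differences was not tested.

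**Figure D3:**
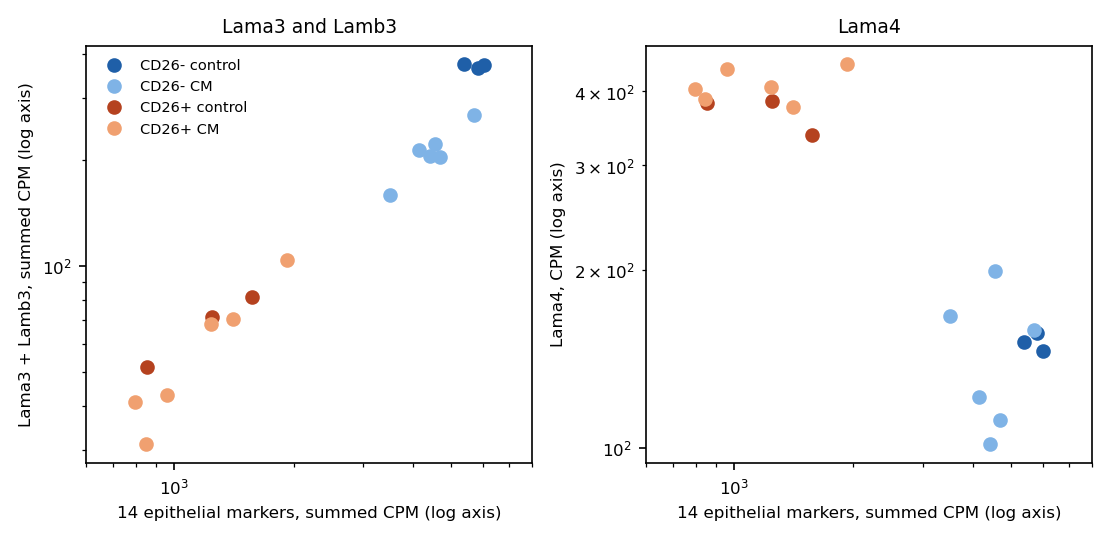
Each of the 18 libraries by the summed CPM of 14 epithelial markers (x axis, log scale) and, on log y axes, by the summed CPM of Lama3 and Lamb3 (left) and the CPM of Lama4 (right), coloured by group. The sum of Lama3 and Lamb3 stays between 3.67% and 6.93% of the epithelial sum in every library, and Lama4 is at 338 CPM or above in CD26+ libraries and at 199 CPM or below in CD26- libraries.

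With the mean log2 CPM of the epithelial markers as a covariate, 8 members passed in control medium and 9 in tumour CM, where 7.49% and 8.99% of all genes passed. In control medium Itga1 (1.28) and Lama4 (1.36) passed as higher in CD26+ NFs. Itga2, Itga3, Itgb6 and Lamc3 passed as lower with smaller differences, -1.44, -0.83, -0.96 and -2.41, and Itgb3 (-1.43) and Lama2 (-2.09) passed too. In tumour CM Itga1, Itgb8, Lama4, Lamc1 and Nid2 were higher and Itga2 (-1.01), Itga3 (-0.75), Itgb6 (-0.71) and Lama2 (-1.75) lower. Lama3, Lamb3, Itga6 and Itgb4 passed in neither medium. In control medium Lama3 (-0.51) and Lamb3 (-0.19) came nearer to 0, while Itga8 (-1.86), Itga9 (1.11) and Nid2 (1.58) lost the call with differences close to those without the covariate, and the difference of Itgb4 in tumour CM became 0.05 (FDR 0.919). This covariate takes values from 6.77 to 7.72 in CD26- libraries and from 4.90 to 6.25 in CD26+ libraries, so its values do not overlap between the cell types.

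Collagen-binding integrins changed in opposite directions. Itga2, which with Itgb1 binds collagen and is common on epithelia, had 437, 455 and 501 CPM in CD26- control libraries and 101, 49.3 and 76.5 CPM in CD26+ control libraries, and 323 to 414 CPM (median 378) against 59.9 to 121 CPM (median 80.2) in tumour CM. Its log2 fold change was -2.62 ± 0.24 (FDR 1.90e-07) and -2.08 ± 0.17 (FDR 1.78e-08). Itga11, a receptor for fibrillar collagen on fibroblasts, had 97.8, 111 and 109 CPM in CD26- control libraries against 284, 338 and 317 CPM in CD26+ control libraries. This gave 1.56 ± 0.28 (FDR 0.000164), and 1.48 ± 0.20 in tumour CM (FDR 5.82e-06). Itga1, another collagen receptor, was higher in CD26+ NFs in both media, by 0.83 ± 0.21 (FDR 0.00278) and 0.96 ± 0.15 (FDR 2.31e-05). It was measured at 31.1, 35.8 and 36.5 CPM in CD26- control libraries and at 58.2, 63.0 and 62.6 CPM in CD26+ control libraries.

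Itgb1, the beta chain shared by collagen, laminin and fibronectin receptors, was the most abundant beta chain per length, with 79.6% to 85.2% of the summed RPKM of the 8 beta chains on average in the 4 groups. CD26- control libraries held 2376, 2411 and 2561 CPM and CD26+ control libraries 1543, 1497 and 1586 CPM, a log2 fold change of -0.67 ± 0.08 (FDR 3.96e-06). In tumour CM, with 1840.4 to 2201 CPM (median 1941) against 1328 to 1695 CPM (median 1463), it was -0.42 ± 0.06 (FDR 9.35e-06). Itga5, its partner in the main fibronectin receptor, held 48.3% ± 0.561 of the summed alpha chain RPKM in CD26- control libraries and 67.8% ± 1.37 in CD26+ control libraries, and was higher in CD26+ NFs by 0.37 ± 0.12 (FDR 0.0182) in control medium. Itga9, which binds tenascin C among other ligands, was measured in control medium at 46.0, 57.9 and 51.6 CPM in CD26- NFs and 108, 128 and 121 CPM in CD26+ NFs, a difference of 1.20 ± 0.19 (FDR 5.52e-05). Itga8, the nephronectin receptor, and Itgb3, a partner of Itgav, were lower in CD26+ NFs in control medium, with log2 differences of -2.18 ± 0.33 and -1.23 ± 0.21. Itgad, a leukocyte alpha chain with at most 38 counts in a library, was higher in CD26+ NFs by 1.27 ± 0.51 in control medium (FDR 0.0471), a call lost in 11 of 24 alternatives, and by 2.09 ± 0.45 in tumour CM (FDR 0.000687). Itga2b, the platelet alpha chain, passed in none of the 5 contrasts.

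Nid2, which joins laminin to type IV collagen, was higher in CD26+ NFs in both media. Its values (chromosome 14, 19751265 to 19811787) were 42.9, 41 and 39.2 CPM in CD26- control libraries and 121, 137 and 107 CPM in CD26+ control libraries. In tumour CM they were 30.3 to 81.1 CPM (median 41.6) and 206 to 365 CPM (median 274). The log2 fold change was 1.57 ± 0.29 (FDR 0.000195) in control medium and 2.54 ± 0.21 (FDR 1.91e-08) in tumour CM, and the test of the difference between these did not pass (0.96 ± 0.35, FDR 0.0901). That test passed in some alternative settings given below, among them the one with the CM line as a replicate block. Agrn, a heparan sulfate proteoglycan, was lower in CD26+ NFs by -1.37 ± 0.15 in control medium and -1.16 ± 0.11 in tumour CM. Nid1 and Hspg2 differed in tumour CM, by 0.67 ± 0.11 (FDR 4.85e-05) and 0.48 ± 0.17 (FDR 0.0220), and their values in control medium were 0.30 ± 0.16 (FDR 0.118) and 0.32 ± 0.24 (FDR 0.292).

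The second question was what 7 days of tumour CM did to these genes. In CD26+ NFs 13 members changed, 12 of them up, among them Nid1, Nid2 and Hspg2, the integrin chains Itgav, Itgb3 and Itgb5, and the laminin chains Lamb1 and Lamc1. In CD26- NFs 5 changed, and 4 of them, Itgb1, Itgb8, Lama3 and Lamc3, fell. Itga4 rose in both. The background was 28.6% of all genes in CD26+ NFs (15.2% up and 13.4% down) and 15.2% in CD26- NFs (7.88% up and 7.28% down), and the shares of members were 35.1% and 13.5%. The median log2 fold change over members was 0.12 in CD26+ NFs and -0.11 in CD26- NFs, beside -0.00 and 0.01 over all genes. Only Itga4 passed the log2 limit of 2, in each cell type, where 2.01% and 0.904% of all genes did. Without 1 control library the count in CD26+ NFs was 7 (replicate 10), 6 (replicate 11) or 7 (replicate 12), where 20.7%, 19% and 20.4% of all genes passed, and without CM replicate 13 or 17 it was 8 (25.1% and 24.8%). In CD26- NFs it was 2 without control replicate 3 (5.69% of all genes) and 10 without CM replicate 9 (17.2%).

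**Figure D4:**
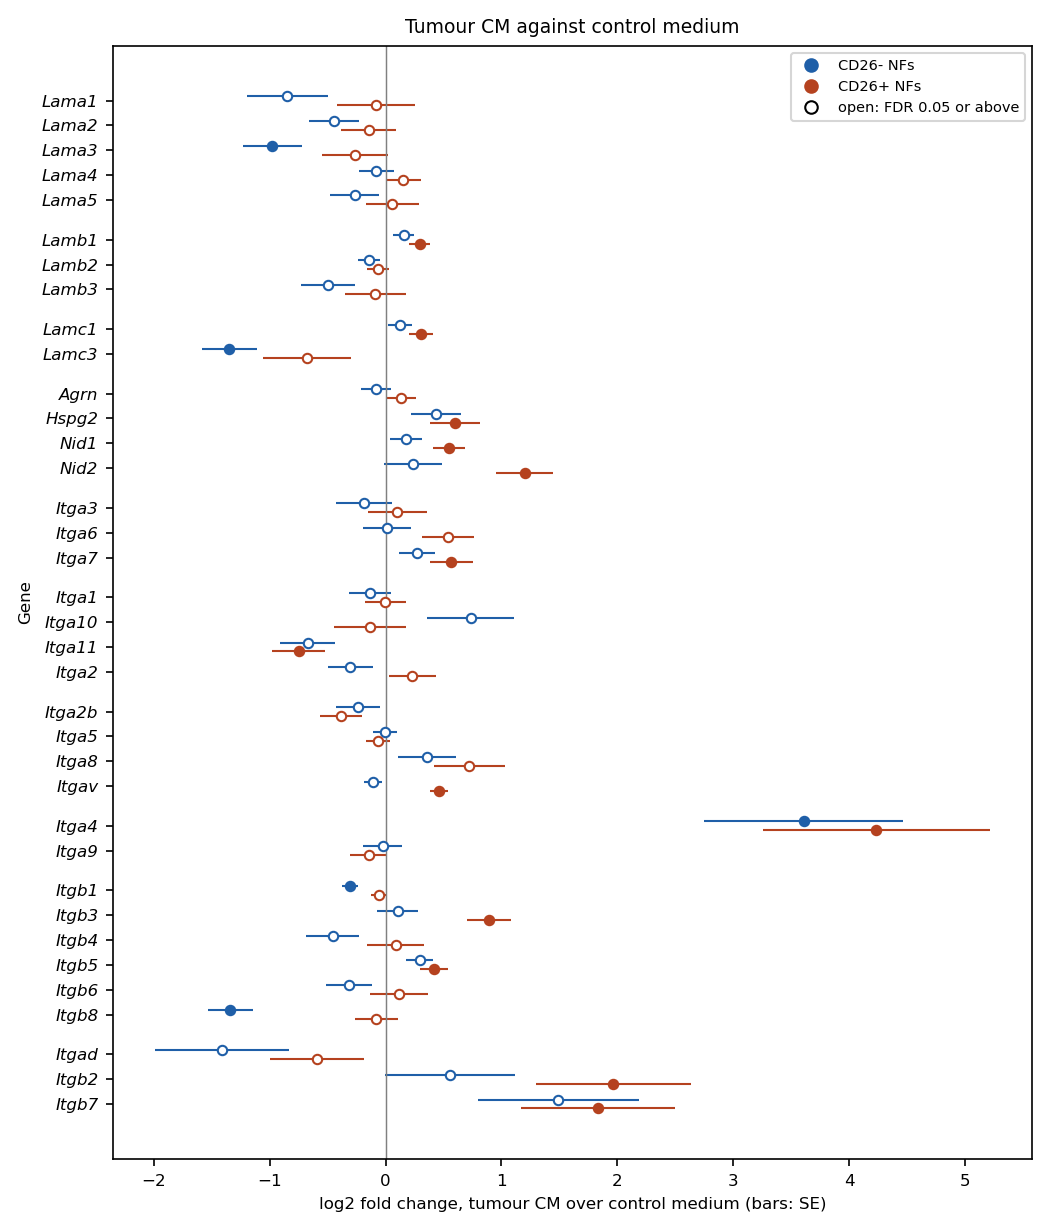
Log2 fold change of tested members in tumour CM against control medium, with the standard error as bars, in CD26- NFs (blue) and CD26+ NFs (red), each 6 against 3 libraries, where filled points passed an FDR of 0.05. Itga4 lies farthest to the right in both cell types, at 3.61 and 4.23, and Itgb8 is at -1.34 in CD26- NFs and -0.08 in CD26+ NFs.

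Promoter sequences were at hand for 26 of the 41 members, from RefSeq on GRCm38.p6. They are shown for Itga4, which had the largest change, and for Itgav and Itgb5, partner chains of a vitronectin receptor that rose together in CD26+ NFs. Each window is the 250 bases before the gene's start, read 5′ to 3′ on the gene's strand, and capitals mark the GC box GGGCGG on either strand.
Itga4 (chr2:79255176-79255425, plus strand): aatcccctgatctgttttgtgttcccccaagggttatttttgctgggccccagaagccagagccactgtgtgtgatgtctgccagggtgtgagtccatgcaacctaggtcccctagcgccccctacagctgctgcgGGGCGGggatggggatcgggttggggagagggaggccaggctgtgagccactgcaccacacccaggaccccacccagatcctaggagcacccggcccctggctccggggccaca
Itgav (chr2:83724147-83724396, plus strand): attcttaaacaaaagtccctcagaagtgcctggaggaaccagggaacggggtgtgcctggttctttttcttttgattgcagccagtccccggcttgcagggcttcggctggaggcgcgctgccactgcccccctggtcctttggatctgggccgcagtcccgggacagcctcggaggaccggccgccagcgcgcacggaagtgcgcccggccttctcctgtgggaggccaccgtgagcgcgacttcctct
Itgb5 (chr16:33829415-33829664, plus strand): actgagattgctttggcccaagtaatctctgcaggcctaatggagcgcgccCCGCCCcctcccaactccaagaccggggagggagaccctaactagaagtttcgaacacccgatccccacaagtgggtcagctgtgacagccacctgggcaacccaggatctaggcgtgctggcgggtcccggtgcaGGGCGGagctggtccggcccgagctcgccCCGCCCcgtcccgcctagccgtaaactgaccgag
Itga4 holds 1 match, Itgb5 holds 3 and Itgav 0. Over the members 13 of 30 promoters (43.3%) hold a GC box in this window and 1 of 30 holds the AP-1 motif TGANTCA, beside 32.7% and 6.75% of 32851 promoters in all.

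Itga4, the alpha chain of receptors for Vcam1 and fibronectin, was close to absent in control medium, at 0.774, 0.683 and 0.880 CPM in CD26- libraries and 0.486, 0.370 and 0.297 CPM in CD26+ libraries, or 4 to 13 counts a library. Tumour CM took it to 3.36 to 14.3 CPM (median 11.8) in CD26- NFs and 0.536 to 17.0 CPM (median 6.82) in CD26+ NFs. Every CM library lay above every control library of its cell type in CPM, CD26+ CM replicate 18 by the least. That library and CD26+ control replicate 10 both held 6 counts, at 0.536 and 0.486 CPM. The log2 fold change was 3.61 ± 0.86 in CD26- NFs (FDR 0.00955) and 4.23 ± 0.98 in CD26+ NFs (FDR 0.00388). In CD26- NFs the call was lost without control replicate 3. Skeletal muscle markers also rose in CD26- NFs, where their summed CPM was 1.29 to 2.32 in control medium and 9.76 to 74.2 in tumour CM. Their sum was 0.162 to 0.444 in CD26+ control libraries and 0.169 to 0.379 in CD26+ CM libraries, and their part in the rise of Itga4 was not tested. Vcam1, one of its ligands, rose in CD26- NFs from 34.9 ± 2.37 CPM (SD, n = 3) to 104 ± 21.4 CPM (n = 6), by 1.58 ± 0.18 on the log2 scale (FDR 8.75e-05). In CD26+ NFs it stood at 105 ± 12.9 CPM in control medium and 175 ± 30.3 CPM in tumour CM, and the difference in CM effect was -0.83 ± 0.23 (FDR 0.0376).

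In CD26+ NFs Itgav, the alpha chain of vitronectin receptors and of integrins that activate TGF-beta (chromosome 2, 83724397 to 83806916), went from 404, 421 and 439 CPM in control medium to 501 to 640.3 CPM (median 591) in tumour CM. All 6 CM libraries lay above the controls, and the log2 fold change was 0.46 ± 0.08 (FDR 0.000345). Itgb3, its partner, went from 66.3, 55.0 and 70.5 CPM to 77.2 to 156 CPM (median 115), again without overlap, by 0.89 ± 0.19 (FDR 0.00191). Itgb5, a further partner, rose by 0.42 ± 0.12 (FDR 0.0136), a call lost without control replicate 10. Nid2 rose by 1.20 ± 0.25 (FDR 0.00171), with the values given above and no overlap. Nid1 rose from 1376, 1512 and 1492 CPM to 1596 to 2705 CPM (median 2075), by 0.55 ± 0.14 (FDR 0.00652).

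Other rises in CD26+ NFs lost their call in several alternative settings. By edgeR, Lamb1 rose by 0.29 ± 0.09 (FDR 0.0227), Lamc1 by 0.31 ± 0.10 (FDR 0.0332) and Itga7 by 0.57 ± 0.18 (FDR 0.0290), and these calls were lost in 6, 4 and 6 of 25. Hspg2, at 0.60 ± 0.21 (FDR 0.0437), and Itgb7, at 1.83 ± 0.66 (FDR 0.0460), lost theirs in 14 of 25 and 14 of 24. Itgb7 and Itgb2, chains of leukocyte integrins that rose in CD26+ NFs by 1.83 and 1.97 ± 0.67 (FDR 0.0342), rested on at most 58 and 21 counts in a library. Itga11 was the member that fell in CD26+ NFs, from the control values above to 131 to 269 CPM (median 160), by -0.75 ± 0.23 (FDR 0.0212), a call lost without control replicate 11 or 12. In CD26- NFs it went to 47.9 to 107 CPM (median 60.2), and -0.67 ± 0.24 missed the threshold (FDR 0.0647).

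In CD26- NFs Itgb8, a partner of Itgav (chromosome 12, 119158022 to 119238802), fell from 7.07, 7.94 and 9.75 CPM to 2.32 to 5.31 CPM (median 2.87). The groups did not overlap, and the log2 fold change was -1.34 ± 0.19 (FDR 0.000371). Lamc3 fell from the control values above to 8.81 to 22.0 CPM, by -1.35 ± 0.24 (FDR 0.00164), and Lama3 fell to 96.7 to 160.3 CPM, by -0.98 ± 0.26 (FDR 0.0165). Itgb1 fell by -0.31 ± 0.07 (FDR 0.00791), with the highest CM library at 2201 CPM and the lowest control at 2376 CPM. The calls of Itgb1 and Lama3 were lost without control replicate 3, and that of Lama3 also without control replicate 1. Lamb3 had -0.50 ± 0.24 (FDR 0.164). Of the 14 epithelial markers 1 fell in CD26- NFs and 1 in CD26+ NFs under CM, where 7.28% and 13.4% of all genes fell. Their sum in CD26- NFs was 5391 to 6034 CPM in control medium and 3504 to 5705 CPM in tumour CM. All CD26- CM libraries but replicate 7 lay below every control in this sum. With the epithelial covariate 5 and 13 members passed, where 8.55% and 29.1% of all genes did. In that fit Lama3 fell by 0.53 in CD26- NFs (FDR 0.00283), and in CD26+ NFs Agrn and Itga6 passed in place of Hspg2 and Itgb7.

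Whether tumour CM acted differently on the cell types was asked of the difference between the effects. It passed in 2 members, Itgav and Itgb8, where 7.53% of all genes passed, and both differences were positive (positive in 4.53% of all genes, negative in 3.01%). None passed the log2 limit of 2, which 0.392% of all genes did. Itgav differed by 0.57 ± 0.11 (FDR 0.00602): it rose in CD26+ NFs, while in CD26- NFs it went from 427, 462 and 471 CPM to 386 to 463 CPM (median 416), a log2 fold change of -0.11 ± 0.08 (FDR 0.355). Itgb8 differed by 1.26 ± 0.27 (FDR 0.0114): it fell in CD26- NFs, while CD26+ libraries held 8.42, 6.59 and 7.35 CPM in control medium and 6.33 to 8.49 CPM (median 6.63) in tumour CM. Without CD26- control replicate 3 or CD26+ control replicate 11 the call of Itgb8 was lost and 1 member was left, where 3.13% and 2.33% of all genes passed. With the line as a replicate block 8 members passed, where 17.6% of all genes did, the added ones being Itgb1, Itgb3, Lama1, Lamc3, Nid1 and Nid2. In that fit Itgb3 differed by 0.78 (FDR 0.00127) and Nid2 by 1.02 (FDR 0.0297), beside 0.79 ± 0.25 (FDR 0.0640) and 0.96 ± 0.35 (FDR 0.0901) without the block. Without CD26+ CM replicate 18 the count was 4 (16.4% of all genes), with Itgb3 and Nid2 added.

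The last question was whether the 6 CM lines differed in what they did. Of 36 members tested over the 12 CM libraries, 9 differed between lines (25%), where 6.56% of all 13344 genes did: Itga11, Lamc3, Itgb3, Itga1, Lama1, Itgb7, Itga4, Itga8 and Itga9. These calls depend on the setting. The count was 16 without line 13-MCB-138, where 10.6% of all genes passed, and 4 without 13-MCB-44, where 3.23% did. It was 21 with DESeq2 (10.5% of all genes) and 27 with no filter on low counts (8.33%). Itga11, Itgb3 and Lamc3 passed in all 11 alternatives.

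Itga11 had the smallest p (FDR 0.00266). In CD26+ NFs it was measured at 152, 131, 252, 168, 146 and 269 CPM under lines 13-MCB-17, 10-SJK-221, 18-MCB-12, 13-MCB-44, 13-MCB-90 and 13-MCB-138, and in CD26- NFs at 50.0, 47.9, 74.4, 65.2, 55.2 and 107 CPM in the same order. Lines 13-MCB-138 and 18-MCB-12 gave the highest values in both cell types. Lamc3 (FDR 0.0136) held 8.81, 12.7, 13.6, 20.7, 11.7 and 22.0 CPM in CD26- NFs in that order of lines, highest under 13-MCB-138 and 13-MCB-44. Itgb3 (FDR 0.0136) held 105, 156, 124, 105, 145 and 77.2 CPM in CD26+ NFs, highest under 10-SJK-221 and lowest under 13-MCB-138. In CD26- NFs it held 149, 136 and 165 CPM in control medium and 128, 195, 174, 149.8, 189 and 132 CPM under the lines, again highest under 10-SJK-221 but lowest under 13-MCB-17.

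Itga1 (FDR 0.0166) held 51.4, 45.5, 61.3, 77.7, 60.2 and 71.4 CPM in CD26+ NFs and 25.6, 22.6, 34.9, 35.95, 26.6 and 43.7 CPM in CD26- NFs, with 10-SJK-221 lowest in both. Lama1 (FDR 0.0204), the laminin chain of early basement membranes, was low throughout, with 2.40, 3.58, 5.56, 8.11, 4.19 and 9.11 CPM in CD26- NFs and 6.97, 7.28, 8.70, 15.2, 5.501 and 12.9 CPM in CD26+ NFs. Lines 13-MCB-44 and 13-MCB-138 gave its highest values in both. Itga4 (FDR 0.0238) was highest in both cell types under 10-SJK-221, at 14.3 and 17.0 CPM, and lowest under 13-MCB-138, at 3.36 and 0.536 CPM.

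Among the 13 members that changed in CD26+ NFs, line 13-MCB-138 had the smallest effect in 12, and its effects had a median of 0.20 in the called direction, beside 0.50 to 1.07 under the other lines. Over all 4087 genes that changed there this line had the smallest effect in 67.5%, with a median of 0.22 beside 0.45 to 0.63 under the other lines, so its weak effect was seen over all genes as well. Its effect had the sign of the fit in 11 of the 13 (91.9% of all genes that changed), and in 13 of 13 under the other lines. In CD26- NFs it had the smallest effect in 3 of the 5 that changed, with a median of 0.78, and 13-MCB-44 in the other 2, where over all 2164 genes that changed the shares were 27.9% and 48.7%. Each line gave CM to 1 library of each cell type, so line and library cannot be told apart within a cell type.

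**Figure D5:**
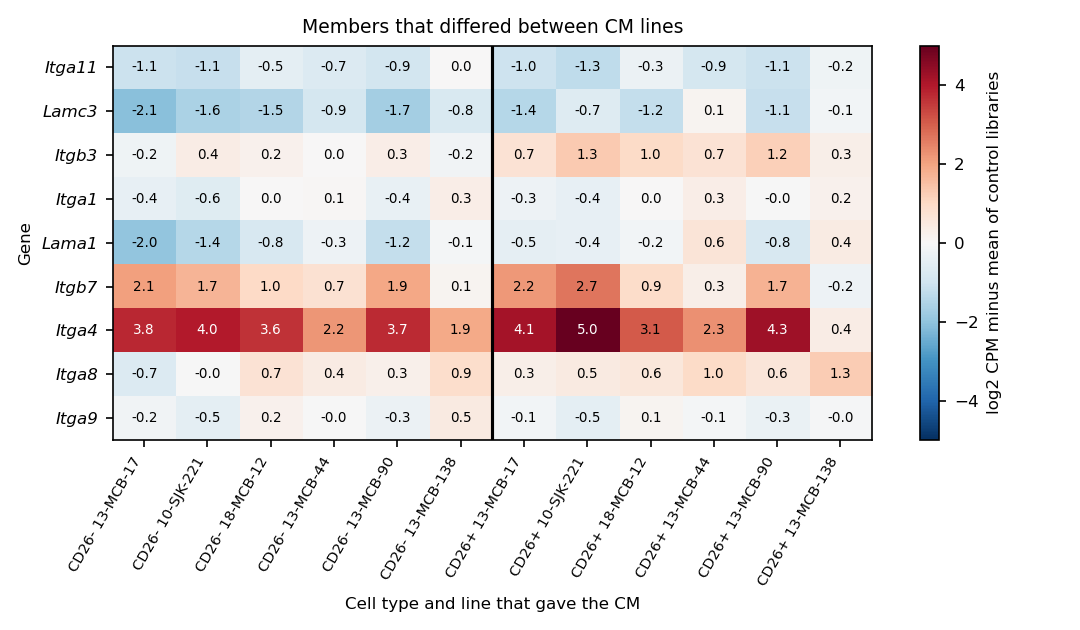
Log2 CPM minus the mean of the control libraries of the same cell type, for the 9 members that differed between lines (rows) under the CM of each line in CD26- NFs (left) and CD26+ NFs (right), each cell 1 library, red above and blue below control. In the row of Itga4 the palest cell is that of 13-MCB-138 in CD26+ NFs, at 0.37, where the other lines are between 2.28 and 5.00.

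Other genes of the same structures were taken as lists. Of 25 other basement membrane genes 6 were higher in CD26+ NFs and 11 lower in control medium, and 7 and 8 in tumour CM, beside 25% and 25.4% of all genes and 29.3% in each direction. Fbln1 and Tgfbi, matrix proteins of the basement membrane zone, were higher in CD26+ NFs in control medium by 2.89 ± 0.19 and 3.77 ± 0.32, at 316 ± 30.5 and 571 ± 45.2 CPM (SD, n = 3) against 42.7 ± 0.987 and 41.8 ± 3.44 CPM. Egflam (pikachurin) and Tinagl1 were lower, by -2.62 ± 0.13 and -2.15 ± 0.21. Under CM 6 of the 25 fell in each cell type, 2 rose in CD26+ NFs and 0 did so in CD26- NFs. Of all genes 13.4% fell and 15.2% rose in CD26+ NFs, and 7.28% and 7.88% did in CD26- NFs. Smoc2, a basement membrane protein that binds calcium, fell in both, by -1.65 ± 0.31 (FDR 0.00248) in CD26- NFs and -2.07 ± 0.29 (FDR 6.73e-05) in CD26+ NFs. Pxdn, a peroxidase that crosslinks type IV collagen, fell by -0.37 ± 0.07 in CD26- NFs and rose by 0.20 ± 0.07 in CD26+ NFs, a difference of 0.57 ± 0.10 (FDR 0.00427), and Col18a1 differed by 1.16 ± 0.25 (FDR 0.0116).

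Of 8 laminin receptors other than integrins, 4 rose under CM in CD26+ NFs while 2 fell, and in CD26- NFs the numbers were 2 and 1, beside the shares of all genes just given. Compared with CD26- NFs, 1 was higher and 3 lower in control medium (25% and 25.4% of all genes), and 4 and 2 in tumour CM (29.3% each). Sdc4 (syndecan 4) rose in CD26+ NFs from 345 ± 17.0 to 612 ± 60.1 CPM, by 0.83 ± 0.08 (FDR 9.78e-07), and in CD26- NFs by 0.23 ± 0.07 (FDR 0.0436), a difference of 0.60 ± 0.10 (FDR 0.00427). Cd151, a tetraspanin bound to laminin-binding integrins, was lower in CD26+ NFs in control medium, by -1.06 ± 0.10 (FDR 3.59e-07). Under CM it rose there, from 118 ± 14.2 to 161 ± 18.6 CPM, by 0.45 ± 0.09 (FDR 0.00158). Sdc3 fell under CM in both cell types, by -0.57 ± 0.12 (FDR 0.00460) in CD26- NFs and -0.52 ± 0.12 (FDR 0.00379) in CD26+ NFs. Rpsa fell in CD26+ NFs by -0.20 ± 0.06 (FDR 0.0119), and its difference in CM effect was -0.27 ± 0.08 (FDR 0.0455).

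The cytoplasmic side of integrin adhesions was represented by 30 genes. In control medium CD26+ NFs had 2 of them higher and 16 lower, and in tumour CM 4 and 13. All genes had 25% and 25.4%, and 29.3% in each direction. Kank1 and Actn1, an adhesion scaffold and an actin crosslinker, were lower in CD26+ NFs in control medium by -1.40 ± 0.12 and -0.73 ± 0.07, and Tns2 and Kank2 were higher by 0.33 ± 0.10 and 0.27 ± 0.09. In CD26+ NFs 9 of the 30 rose under CM while 2 fell (15.2% and 13.4% of all genes), and in CD26- NFs 0 rose and 4 fell (7.88% and 7.28%). Tns3 (tensin 3) rose in CD26+ NFs from 217 ± 6.84 to 469.6 ± 78.6 CPM, by 1.11 ± 0.12 (FDR 3.41e-06), and Kank1 by 0.83 ± 0.11. In CD26- NFs Ptk2b and Nedd9, a focal adhesion kinase relative and a docking protein, fell by -0.79 ± 0.17 and -0.75 ± 0.18. The difference in CM effect passed in 5 of the 30 (7.53% of all genes), all positive, among them Kank1 (0.83 ± 0.15) and Src (0.52 ± 0.10).

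Of 22 integrin ligands outside the basement membrane 19 were tested, and in control medium CD26+ NFs had 10 of them higher and 4 lower (25% and 25.4% of all genes), in tumour CM 13 and 1 (29.3% each). CM raised 7 of them in CD26+ NFs and lowered 7 (15.2% and 13.4% of all genes), and in CD26- NFs it raised 1 and lowered 4 (7.88% and 7.28%). Thbs1 (thrombospondin 1) rose in CD26+ NFs from 4427 ± 114 to 11292 ± 2066 CPM, by 1.35 ± 0.15 (FDR 4.74e-06), and the difference from CD26- NFs was 1.12 ± 0.20 (FDR 0.00427). Tnc (tenascin C), a ligand of Itga9 and Itgav, rose from 4561 ± 454 to 10041 ± 2199 CPM, by 1.14 ± 0.16 (FDR 5.18e-05). Postn (periostin), a ligand of Itgav with Itgb3 or Itgb5, fell in CD26+ NFs from 4082 ± 589 to 1305 ± 663 CPM, by -1.65 ± 0.35 (FDR 0.00190), and in CD26- NFs by -1.29 ± 0.35 (FDR 0.0195). Edil3, a further ligand of Itgav, fell in both cell types, by -1.89 ± 0.15 and -1.34 ± 0.18.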

How the data were processed

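The authors deposited a table of raw read counts per Ensembl gene, 1 column for each of 18 libraries, without normalization. Libraries were made with a stranded kit for polyadenylated RNA and sequenced single-end. The submitters' processing notes name HISAT2 2.1.0, HTSeq and GRCm38. The strand setting and annotation release are not given in the sources used here. Columns were assigned by their labels. The 1 row without a gene held 0 counts. Replicates differed beyond counting error (lowest chi-square per degree of freedom 3.10).

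Genes were filtered with filterByExpr by group, scaled by TMM and tested with edgeR 4.0.16 (glmQLFit and glmQLFTest, R 4.3.3) in 1 model with 4 group means, and 5 contrasts were called at a Benjamini-Hochberg FDR under 0.05 over 14273 genes. This relaxes the study's call, which also used a log2 limit of 2, counted beside it. The study used DESeq2, run here as version 1.42.0 among the alternatives. The common biological coefficient of variation was 0.117. Lines were tested in the 12 CM libraries with cell type and line as terms. CPM are counts scaled to a common TMM-scaled library size, and RPKM divide these by exon length in kilobases (GENCODE M21, whose coordinates equal the file's for all 41 members). The standard error (SE) is the size of the log2 fold change over the square root of F. Each group had 3 or 6 libraries.

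The members and lists were chosen with earlier results of these data known. Values are given for every library, or as range and median, of the 3 higher and 3 lower members per contrast that had the smallest p of those called and reached a group mean of 5 CPM, for the 5 smallest p of the line test, and for Itga6, Itgb1, Itgb4, Lama3, Lamb3, Lamb1 and Lamc1. Of the tested members 1 is counted but not reported here by name. From other lists 2 in each direction per contrast were eligible by the same rule, and most are named. Other members are named to account for their families, outside this rule.

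CM libraries of the same line deviated together from their group means (r from 0.247 to 0.406 in 6 pairs, against -0.315 to 0.242 for other lines), and the labels name the shared line, so 1 alternative took the line as a replicate block, for the cell types in tumour CM and the CM difference. Other alternatives were scaling by RLE or the upper quartile, leaving low counts unfiltered, only genes that averaged 5 CPM or more over all libraries, only the groups compared, an epithelial covariate and each library or line left out. The labels give no batch, and none was tested.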

Additional observations from a re-analysis of the deposited data

Results flagged for a closer look

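Both results that stood out are differences between the cell types in what tumour CM did, each by the test of the difference itself. That test passed in 2 of the 37 members (5.41%), where 7.53% of all genes passed. The difference is the log2 effect in CD26+ NFs minus that in CD26- NFs. For Itgav it was 0.57 (SE 0.11, FDR 0.00602 by edgeR), with effects of 0.46 and -0.11. For Itgb8 it was 1.26 (SE 0.27, FDR 0.0114), with effects of -0.08 and -1.34, the fall in CD26- NFs being called and the value in CD26+ NFs not. The Itgb8 difference lost its call without CD26- control replicate 3 or CD26+ control replicate 11. No library stood apart by Dixon's test in the 74 sets of CM libraries examined, 37 members in each cell type, where chance alone flags about 1 in 20.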

How the results depend on the processing

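Over the 5 contrasts, 4474 of 4630 single-member results kept their side of the FDR under the alternatives, 125 lost a call, 30 gained one and 1 with a call reversed (changes of sign without a call were not counted), Itgb4 in tumour CM with the epithelial covariate (0.0475, FDR 0.919). The 4474 include results without a call in either fit, and most alternatives only left out 1 library. With the log2 limit of 2 the counts of members were 1 and 1 for the CM effect in CD26- and CD26+ NFs (0.904% and 2.01% of all genes). They were 10 and 7 for the cell types in control medium and under CM (5.97% and 4.16%), and 0 for the difference between effects (0.392%). At the FDR alone 2 members passed for that difference (7.53% of all genes). An unadjusted p under 0.05 was found in 5 members, where 25.2% of all genes had such a p. With only the groups compared the count in CD26- NFs was 9 (16.3% of all genes). The epithelial covariate left 8 members in control medium and 9 in tumour CM (7.49% and 8.99% of all genes). With the line as a replicate block the difference in CM effect passed in 8 members (17.6% of all genes), and in the comparison in tumour CM 31 passed as before (60.7% of all genes). For the lines DESeq2 gave 21 (10.5% of all genes) and no filter 27 (8.33%). Leaving out 1 library at a time gave 2 to 10 members for CM in CD26- NFs (5.69% to 19.3% of all genes), 6 to 14 for CM in CD26+ NFs (19% to 34.9%), 24 to 26 for the cell types in control medium (42.1% to 52.4%), 29 to 31 in CM (55.3% to 59.3%), 1 to 4 for the difference in effect (2.33% to 16.4%), and leaving out 1 line gave 4 to 16 for the lines (3.23% to 10.6%). The cause was not tested. RLE and upper-quartile scaling moved the median of all genes by under 0.1. Itgad, Itgb2 and Itgb7 had at most 38, 21 and 58 counts in a library.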
